A study of Mus musculus with 13 samples.

Results

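Glutathione transferases, aldehyde dehydrogenases and aldo-keto reductases were followed as a set in tumors and glands of the mammary tissue of MMTV-HER2/Neu mice. The members were all genes of the count table whose symbol begins with Gst plus a class letter and a number, with Aldh plus a number, or with Akr plus a number. By this rule 59 of 24421 genes were members, namely 21 glutathione transferases, 21 aldehyde dehydrogenases and 17 aldo-keto reductases. All 13 libraries came from mice of strain FVB/N-TgN (MMTV-HER2/neu), line 202Mul/J, so glands and tumors alike carried a rat HER2/neu transgene driven in mammary epithelium by the promoter of mouse mammary tumor virus. The groups were mammary glands of untreated mice (gland, n = 2), primary tumors of untreated mice (primary untreated, n = 3), and primary tumors of mice that drank 1 mg/mL stavudine, an inhibitor of reverse transcriptase (primary STV, n = 3). The remaining tumors had come back after mice were cleared of tumor by 17-DMAG, which blocks the chaperone HSP90 and was injected at 20 mg/kg. Injections went on while these tumors grew, so recurrence and ongoing drug cannot be told apart in any comparison of recurrent with primary tumors. They came from mice without stavudine (recurrent 17-DMAG, n = 3) or with it (recurrent 17-DMAG plus STV, n = 2). Each tumor library was 1 tumor, the ages of the mice were not in the labels, and primary STV tumors arose in mice already on stavudine. For recurrent 17-DMAG plus STV mice no label says whether stavudine began in young mice or once a first tumor appeared.

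The 3 families clear reactive molecules by different reactions. Glutathione transferases join the tripeptide glutathione to electrophiles, aldehyde dehydrogenases oxidise aldehydes to acids, and aldo-keto reductases reduce aldehydes and ketones to alcohols with NADPH. Some members serve a fixed metabolic step instead, such as the making of retinoic acid, the breakdown of amino acids or the handling of folate. Many of them are under the transcription factor NRF2, which binds the antioxidant response element, and several are known for metabolising anticancer drugs.

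Values of single genes are given as CPM, a count of a gene relative to the total count of its library after that total was scaled by its TMM factor. Total counts ran from 39921388 to 56887708, and the floor of detection, set at 3 counts, was 0.0587 to 0.0695 CPM in 12 libraries and 0.107 CPM in gland 2. Floors and count intervals here reflect counting error alone. The luminal epithelial list (5 genes, none at 0) summed to 1242 to 2661 CPM in the 13 libraries. Among libraries, 3 stood apart. Gland 2 had 764699 CPM of genes of the milk-producing list and 1672 CPM of the skeletal muscle list, against 28058 and 7.66 CPM in gland 1, and a TMM factor of 0.493 against 0.999 to 1.12 elsewhere. Gland 1 in turn had 174 CPM of the lymphocyte list against 5.92 CPM in gland 2. The first recurrent 17-DMAG tumor had 5641 CPM of the fibroblast list, where the other tumors had 239 to 1818 CPM. It was the lowest of the 11 tumors for 16 of the 47 members tested and the highest for 9, while among 13930 genes over 1 CPM it was the lowest for 27.7% and the highest for 24.4%. The second recurrent 17-DMAG plus STV tumor had 1467 CPM of the skeletal muscle list and 1242 CPM of the luminal list (other tumors 2042 to 2661). Its basal and myoepithelial list summed to 270 CPM (other tumors 21.7 to 213), of which Acta2 gave 148 and Trp63 86.4 CPM. Krt14, Krt5, Krt17, Oxtr and Myh11 were lower there than in the first recurrent 17-DMAG tumor. This second recurrent 17-DMAG plus STV tumor was the highest for 6 members, Aldh1a1, Aldh2, Aldh3a2, Aldh3b1, Aldh4a1 and Aldh7a1, and the lowest for 1, Gsta2. Among the 13930 genes it was the highest for 13.8% and the lowest for 14.0%. The part of muscle, basal and luminal cells in its values was not tested. The second primary untreated tumor was the highest of the 11 for 10 members and the lowest for 5, beside 13.6% and 13.5% of these genes. Gsta3, Gsta4, Gstm1, Gstm2, Gstm4 and Gstt2 were among the 10. The third primary untreated tumor was the highest for 8 and the lowest for 6, beside 9.43% and 5.75%. Comparisons with primary untreated tumors use both as reference.

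Of the 59 members, 47 passed the filter on low counts, namely 18 glutathione transferases, 20 aldehyde dehydrogenases and 9 aldo-keto reductases. Between genes, levels were compared as CPM per kilobase of exon. Akr1a1, the general aldehyde reductase, had the highest level of all members, with a mean of 167 ± 23.8 (SD, n = 11) CPM per kilobase in tumors and 143 and 153 in the glands. It made up 70.9% to 81.1% of the counts of its family. Aldh2, the mitochondrial enzyme that clears acetaldehyde, followed with 85 ± 15.5 in tumors and 59.6 and 72 in the glands, and made up 24.7% to 49.2% of the counts of the aldehyde dehydrogenases. The tumor ranges of these leading members overlapped, at 107 to 186 CPM per kilobase for Akr1a1 and 50.3 to 114 for Aldh2. Within each library, Akr1a1 was above Aldh2.

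No single glutathione transferase stood above the others in the same way. Gstm1, of the mu class, averaged 33.2 ± 12.4 CPM per kilobase over the 11 tumors, the theta-class gene Gstt3 28.9 ± 6.08, the pi-class gene Gstp1 25.2 ± 3.49, and the mu-class gene Gstm5 22.9 ± 5.59. Neighbours in that order had overlapping tumor ranges, at 20.5 to 64, 14.7 to 37.8, 18.3 to 30.1 and 15.4 to 31.6 CPM per kilobase. After Aldh2, the aldehyde dehydrogenases Aldh6a1 (21.3 ± 6.54), Aldh18a1 (18.5 ± 2.34) and Aldh7a1 (18.3 ± 3.29) also had overlapping tumor ranges; they serve the breakdown of valine, the synthesis of proline and the breakdown of lysine. After Akr1a1, the next aldo-keto reductases were Akr1b10 (16.3 ± 3.12) and Akr7a5 (13 ± 1.9), about an order of magnitude lower. Over all 13 libraries the leading members of each family were Gstm1 (32 CPM per kilobase), Gstp1 (28.8) and Gstt3 (27.2), Aldh2 (82), Aldh18a1 (24.8) and Aldh6a1 (22.8), and Akr1a1 (164), Akr1b10 (15.7) and Akr7a5 (13.8). Gstp1 and Aldh18a1 each stood 1 place lower over the tumors alone, and in gland 2 they reached 74.9 and 101 CPM per kilobase against 21.5 and 18.3 in gland 1.

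**Figure D1:**
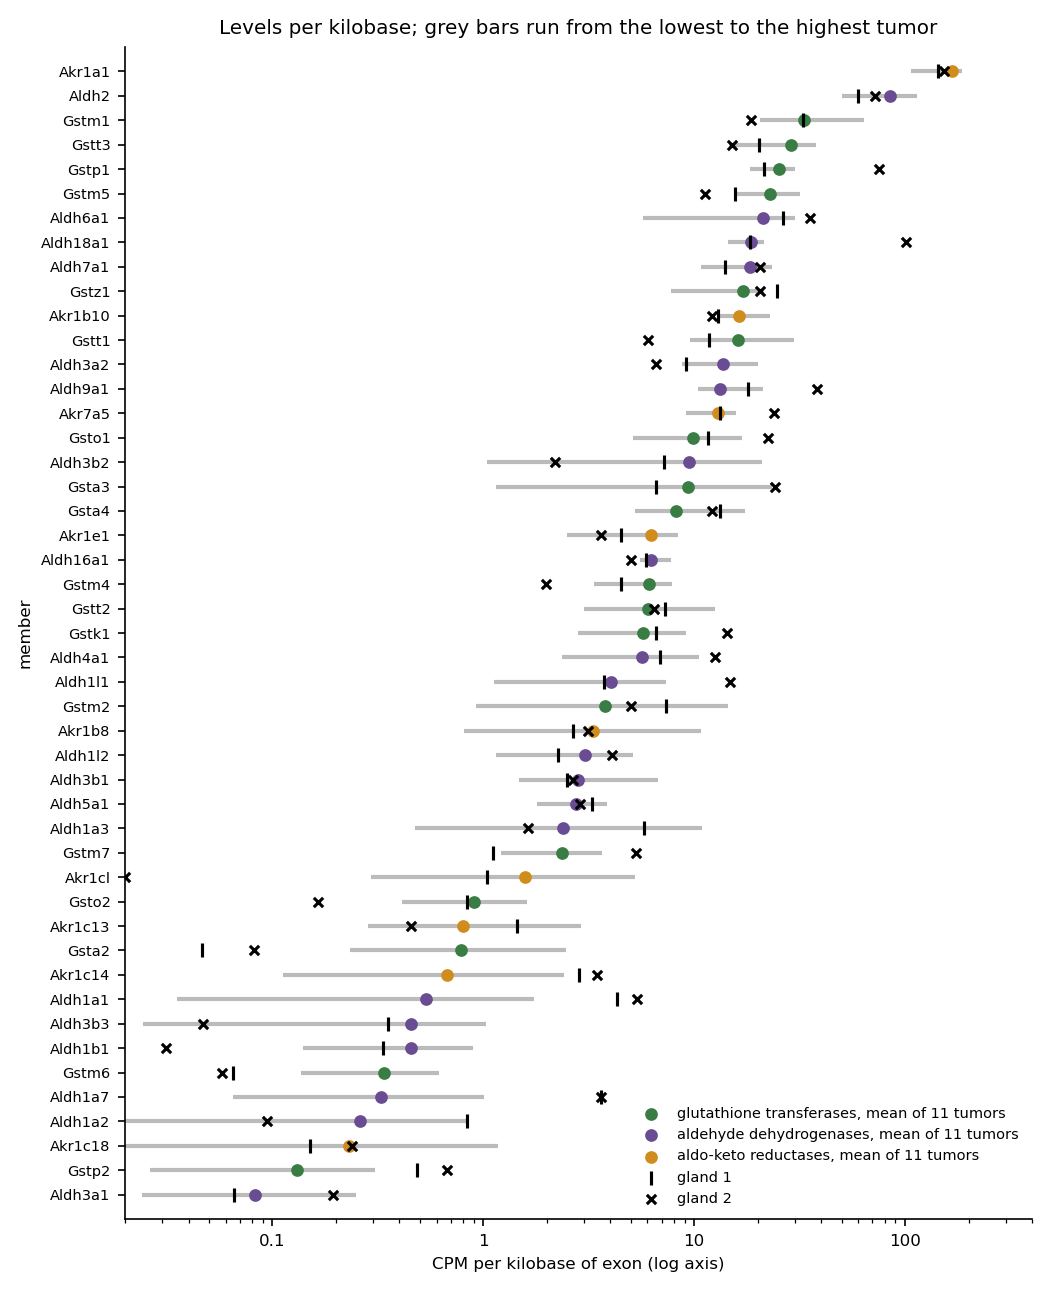
Levels of the 47 tested members as CPM per kilobase of exon on a log axis: coloured points are means of the 11 tumors, grey bars run from the lowest to the highest tumor (to the left edge where the lowest is near or at 0), and black marks are the 2 glands, drawn at the left edge where at 0. Akr1a1 (167) and Aldh2 (85) lie above all others, and the gland marks of Aldh1a1, Aldh1a7 and Gstp2 lie to the right of their bars.

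The other 12 members did not pass the filter. Akr1b3, the aldose reductase of the mouse, had a count of 0 in all 13 libraries, as did Akr1c20. Of the stretches of 50 bases in the Akr1b3 transcript, 86.2% also occur in transcripts of other annotated genes, led by Gm38056, Gm6644 and Gm6736, and how reads with several matches were counted was not stated. The count of 0 is therefore a property of this table and does not show that the gene was silent. Akr1c6, Akr1d1 and Gsta1 had at most 2 counts in a library, Akr1c21 at most 4, Gstm3 at most 5, Akr1b7 at most 9, Aldh8a1 and Akr1c19 at most 10, Gstt4 at most 14 and Akr1c12 at most 15. Counts of several close relatives are uncertain for the same reason: 62.3% of the stretches of Gstp1 and 72.6% of those of Gstp2 were shared, mostly with each other, as were 64.2% of those of Gsta2, mostly with Gsta1 and 2 predicted genes. Of all 59 members, 21 shared no such stretch with another gene and 18 shared over 10%. Stretches were searched on both strands, and genes that overlap a member at the same place were not set apart from its relatives.

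Across the 11 tumors, some members were held within a narrow range and others were not. The ratio of the highest to the lowest tumor was 1.41 for Aldh16a1, 1.48 for Aldh18a1, 1.65 for Gstp1 and 1.75 for both Akr1a1 and Akr1b10. It was 49.3 for Aldh1a1, 44.5 for Aldh1a2 and 22.9 for Aldh1a3, the 3 enzymes best known for making retinoic acid from retinaldehyde, and 42.6 for Aldh3b3. At its lowest and highest tumor, Aldh1a1 read 0.0843 and 4.16 CPM, Aldh1a2 0.0422 and 1.88 CPM, and Aldh1a3 2.11 and 48.3 CPM. The lowest Aldh1a1 and Aldh1a2 values, both of the third primary STV tumor, were 4 and 2 counts, the latter under the floor of 3 counts. The lowest Aldh3b3 value was 4 counts, so the ratios of these members are uncertain. The third primary STV tumor also had the lowest fibroblast (239 CPM) and adipocyte (31.4 CPM) sums of the tumors. The highest Aldh1a2 and Aldh1a3 values were both those of the first recurrent 17-DMAG tumor, which also had the most fibroblast and macrophage RNA (478 CPM of the macrophage list against 126 to 235 CPM in the other tumors); the part of these cells in the values was not tested.

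**Figure D2:**
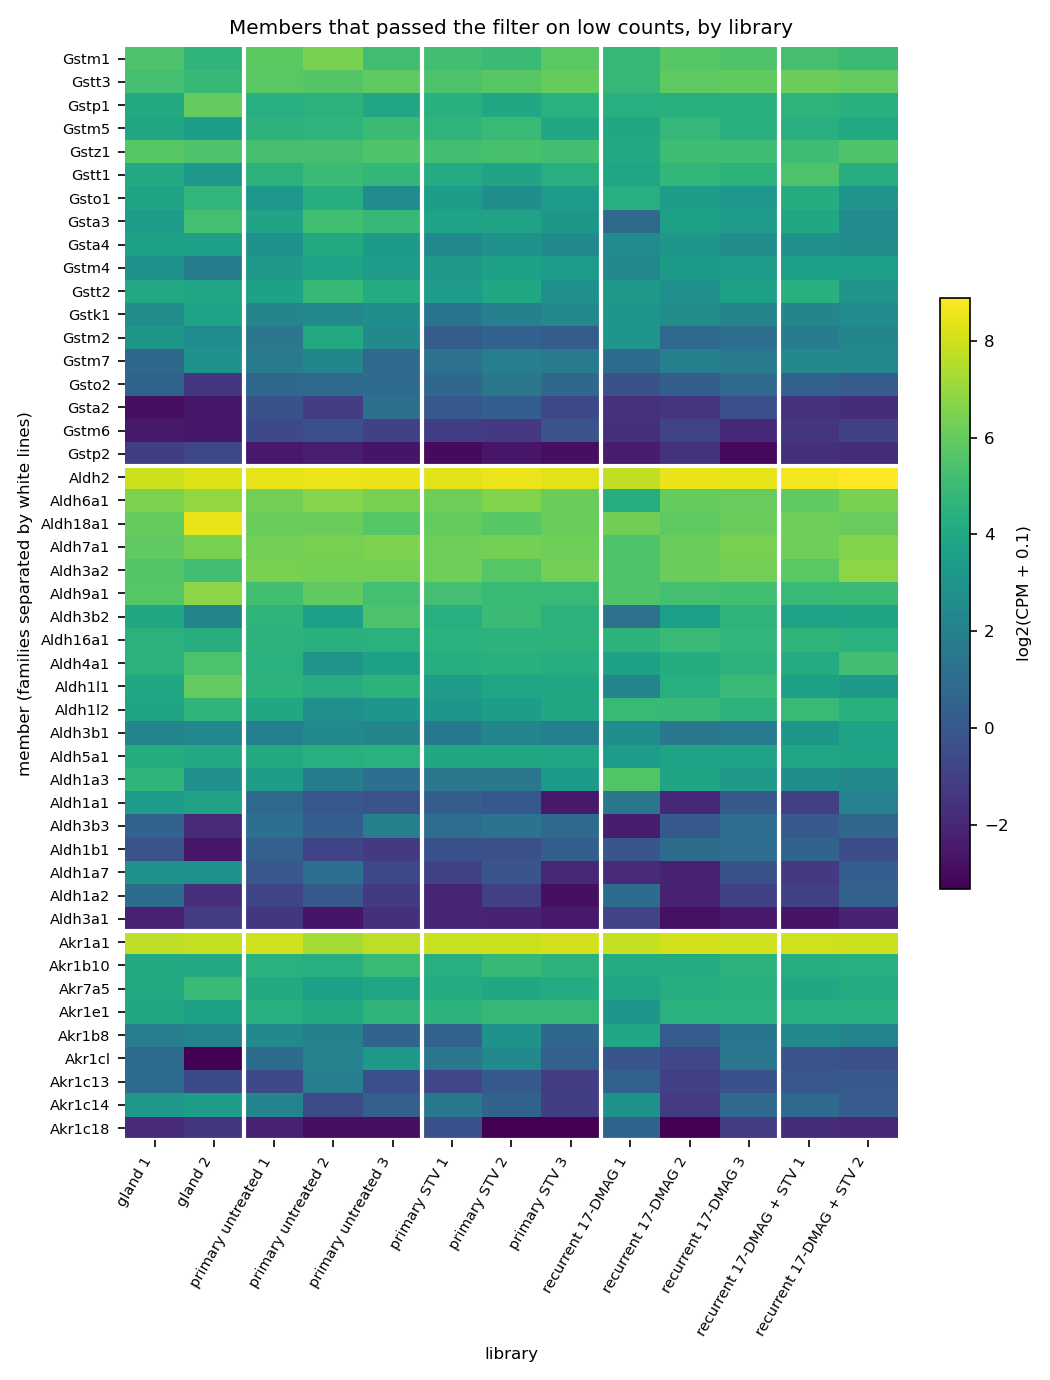
Heat map of log2(CPM + 0.1) for the 47 tested members (rows, by family and tumor level) in the 13 libraries (columns, by group). Akr1a1 and Aldh2 are bright in every library, gland 2 is brighter than gland 1 in Aldh18a1 (356 against 64.6 CPM) and Gstp1 (61.5 against 17.6 CPM), and the first recurrent 17-DMAG tumor is darker in Gsta3 (1.78 CPM) and Aldh3b2 (2.22 CPM).

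To ask how the families differ between tumors and cancer-free tissue, the mean of the 4 tumor groups was compared with the glands. At an adjusted p under 0.05, 6 of the 47 members tested were called (12.8%), beside 10.4% of all 17135 genes. Gsta2 was called higher (1 member, 2.1%, beside 1.6% of all genes), and Aldh1a7, Aldh1a1, Gstp2, Aldh18a1 and Aldh9a1 were called lower (5 members, 10.6%, beside 8.81%). These shares were near those of all genes. At an unadjusted p under 0.05 there were 7 higher and 11 lower (38.3%, beside 29.6% of all genes), and the median log2 fold change was -0.20, beside -0.02 over all genes. In log2 fold change 21 members were above 0 (44.7%, beside 48.4%). The glands are whole tissue, so fewer cells of a type and less RNA per cell cannot be told apart in any of these values.

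Aldh1a7 (chr19:20692953-20727562, minus strand, GRCm38), a close relative of Aldh1a1, read 7.45 and 7.46 CPM in the glands. In tumors it read 0.896, 2.08 and 0.521 CPM in primary untreated, 0.437, 0.827 and 0.169 in primary STV, 0.185, 0.134 and 0.714 in recurrent 17-DMAG, and 0.313 and 1.14 in recurrent 17-DMAG plus STV. Every tumor was below both glands. The log2 fold change was -3.60 with an SE of 0.609 (adjusted p = 0.00657, edgeR quasi-likelihood test), and this was the member that kept its call whichever library was left out.

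Aldh1a1 (chr19:20492715-20643465, plus strand), which oxidises retinaldehyde to retinoic acid, gave 10.3 and 12.9 CPM in the glands. The tumors gave 1.71, 0.897 and 0.782 CPM (primary untreated), 1.15, 0.936 and 0.0843 (primary STV), 2.76, 0.156 and 0.986 (recurrent 17-DMAG), and 0.391 and 4.16 (recurrent 17-DMAG plus STV), all below the glands. Its log2 fold change was -3.21 with an SE of 0.825 (adjusted p = 0.0351), and the adjusted p was 0.237 without gland 2. It was also past 0.05, at 0.0547 to 0.0631, without the second or the third primary untreated, the second primary STV, the third recurrent 17-DMAG or the first recurrent 17-DMAG plus STV tumor.

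Aldh1a1 and Aldh1a7 are neighbours that are transcribed toward each other, and both are lower in every tumor than in either gland, so the bases before their start sites are shown. They are 120 bases of each strand, from position -126 to -7 relative to the start of a RefSeq transcript (GRCm38.p6), at chr19:20601842-20601961 on the plus strand for Aldh1a1 and chr19:20727563-20727682 on the minus strand for Aldh1a7. The capitals mark the longest stretch that both hold.

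Aldh1a1: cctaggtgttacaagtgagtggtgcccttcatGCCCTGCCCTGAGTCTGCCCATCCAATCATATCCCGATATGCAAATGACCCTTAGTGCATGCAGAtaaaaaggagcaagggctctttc
Aldh1a7: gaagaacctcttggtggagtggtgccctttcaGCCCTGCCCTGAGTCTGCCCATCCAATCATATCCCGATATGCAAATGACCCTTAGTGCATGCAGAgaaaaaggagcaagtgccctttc

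The shared stretch was 65 bases long and lay at the same distance from both start sites, from -94 to -30. Over the 120 bases, 99 (82.5%) were the same in both genes. Among 32851 promoter windows of 27025 genes, 2 windows held the whole stretch, those of these neighbours. The Aldh1a1 window belongs to the start site at base 20601968, the downstream of 2 RefSeq start sites. The shared bases describe the sequence, and nothing in the counts shows what binds there. In their transcripts the genes share less, 6.5% of the 50-base stretches of Aldh1a1 and 7.5% of those of Aldh1a7.

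Gstp2, a second pi-class transferase, had 19 and 15 counts in the glands (0.384 and 0.535 CPM) and 1 to 11 counts in the tumors. Its values were 0.0796, 0.102 and 0.0601 CPM in primary untreated, 0.023, 0.0653 and 0.0422 in primary STV, 0.0926, 0.246 and 0.021 in recurrent 17-DMAG, and 0.215 and 0.204 in recurrent 17-DMAG plus STV. The tumors were all below the glands, and 3 of them were under the floor of 3 counts. The ratio of pooled tumor to pooled gland counts was 0.24 (95% exact interval 0.154 to 0.379), the log2 fold change -2.20 with an SE of 0.603 (adjusted p = 0.0434). The call held without any 1 of the recurrent 17-DMAG tumors and was lost without any other library, with an adjusted p of 0.353 without gland 2, 0.0648 without gland 1 and 0.0559 to 0.088 without 1 of the other tumors. It was lost as well with no filter on low counts (0.062). Because most of its transcript is shared with Gstp1, a shift of reads between these genes would change this value.

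Aldh18a1 catalyses the first steps of proline synthesis. It read 64.6 and 356 CPM in the glands, and 70.6, 69.5 and 51.1 CPM in primary untreated, 64.1, 52 and 69.3 in primary STV, 75.7, 57.1 and 68.7 in recurrent 17-DMAG, and 72.5 and 66.9 in recurrent 17-DMAG plus STV tumors. Gland 1 lay inside the range of the tumors. The call (log2 fold change -1.68, SE 0.374, adjusted p = 0.0203) rested on gland 2: without it the log2 fold change was 0.11 (adjusted p = 0.861).

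Aldh9a1, which makes the carnitine precursor butyrobetaine, had 51 and 108 CPM in the glands. In the tumors it had 36.9, 60.3 and 37.8 CPM (primary untreated), 38.1, 31 and 30.5 (primary STV), 45.7, 37.5 and 36.9 (recurrent 17-DMAG), and 29.5 and 32.1 (recurrent 17-DMAG plus STV). The second primary untreated tumor exceeded gland 1, so the groups overlapped. The log2 fold change was -1.11 with an SE of 0.236 (adjusted p = 0.0173), and it was -0.38 without gland 2 (adjusted p = 0.528).

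Gsta2 is an alpha-class transferase. It had 2 counts in each gland (0.0404 and 0.0714 CPM) and 10 to 107 counts in the tumors. The tumor values were 0.717, 0.367 and 2.15 CPM in primary untreated, 0.921, 1.17 and 0.527 in primary STV, 0.232, 0.268 and 0.693 in recurrent 17-DMAG, and 0.235 and 0.204 in recurrent 17-DMAG plus STV, all above the glands. Pooled, tumors had 13.2 times the gland level (95% exact interval 5.12 to 48.8). The interval takes every count as an independent read, and Gsta2 counts were even in 10 of 13 libraries, both glands included. The log2 fold change was 3.26 with an SE of 0.910 (adjusted p = 0.0467), and the adjusted p was 0.213 without gland 2 and 0.129 without gland 1. The call held without the second or the third primary untreated or the first recurrent 17-DMAG tumor and was lost, at 0.0585 to 0.0729, without any other tumor. At 2 counts in each gland, Gsta2 passed the filter on low counts through the tumors, and with no filter or with limma voom it was not called (0.0502 and 0.139). In the mu class, Gstm6 had 4 and 2 gland counts and 8 to 36 tumor counts, a pooled ratio of 5.43 (2.46 to 15), and missed the threshold (log2 fold change 2.33, adjusted p = 0.0511). Gstm6 likewise passed the filter through the tumors, and its counts were even in 9 of 13 libraries, both glands included.

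**Figure D3:**
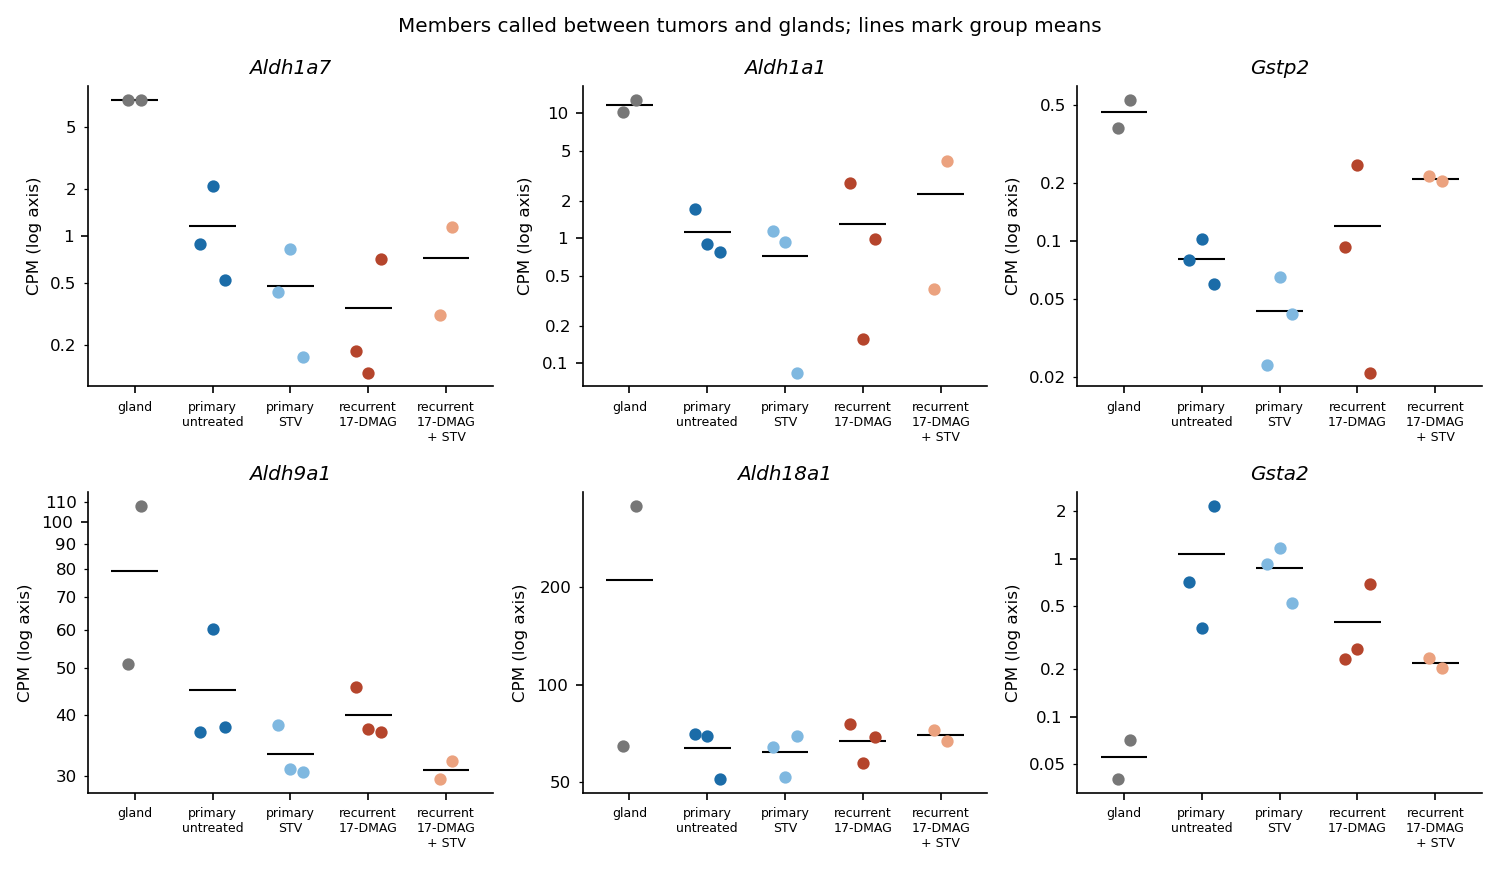
CPM on a log axis of the 6 members called between tumors and glands; each point is 1 library, by group, and black lines are group means. The glands lie above every tumor in Aldh1a7, Aldh1a1 and Gstp2 and below every tumor in Gsta2, while in Aldh18a1 gland 1 (64.6 CPM) lies among the tumors and gland 2 (356 CPM) far above them.

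Gland and tumor values overlapped in most members. They did not in Gsta2, Gstm6 and Akr1b10, which were higher in all tumors (3 members, 6.4%, beside 4.14% of all genes), nor in Aldh1a1, Aldh1a7, Gstp2 and Akr1c14, lower in all tumors (4 members, 8.5%, beside 7.37%). Of these, Gsta2 and Gstm6 had few gland counts and passed the filter through the tumors. Akr1c14, a hydroxysteroid dehydrogenase, read 9.07 and 11 CPM in the glands and 0.357 to 7.69 CPM in the tumors (log2 fold change -2.34, adjusted p = 0.0965). Akr1b10 read 17.7 and 16.7 CPM in the glands and 18 to 31.4 CPM in the tumors. Beside these differences, the adipocyte list summed to 1663 and 4058 CPM in the glands and 31.4 to 262 CPM in the tumors, and the basal and myoepithelial list to 323 and 917 CPM in the glands and 21.7 to 270 CPM in the tumors. The fibroblast list had 2576 and 2307 CPM in the glands, above 10 of the 11 tumors. Of these lists, 9 of 10 adipocyte, 4 of 7 basal and myoepithelial and 1 of 6 fibroblast genes were called lower in tumors, with no defining gene at 0 in a gland. In 2 further lists the sums of both glands were above those of every tumor. The milk-producing list had 28058 and 764699 CPM in the glands and 4603 to 23365 CPM in the tumors. In gland 1, Csn1s1, Csn3, Csn1s2b and Lalba lay inside the tumor range. The lymphocyte list had 174 and 5.92 CPM in the glands and 1.83 to 4.68 CPM in the tumors. In gland 2, Cd3e, Cd3d, Cd3g and Cd79b lay inside the tumor range. The part of these cells in the members' values was not tested.

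To ask whether stavudine alone changed the families, primary STV tumors were compared with primary untreated tumors. At an adjusted p under 0.05 there were 0 members called, as of all 16870 genes tested (0%). By the edgeR test 3 members were under an unadjusted p of 0.05 (6.4%, beside 3.76% of all genes), and DESeq2 also called 0 members and 17 genes. Of the fitted log2 fold changes, 10 of 47 were above 0 (21.3%, beside 44.9% of all genes), with a median of -0.22 beside -0.03. In 7 members (14.9%, beside 5.83% of all genes) every STV tumor was below every untreated tumor, and in 0 members was it the reverse (5% of all genes). They were the transferases Gsta3, Gsta4, Gstm2 and Gstt1 and the dehydrogenases Aldh1l1, Aldh3a2 and Aldh5a1.

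The smallest unadjusted p was that of Gstm2, a mu-class transferase. It read 2.79, 17.1 and 5.41 CPM in primary untreated and 1.13, 1.35 and 1.1 CPM in primary STV tumors. The STV tumors lay close together, below untreated tumors that were far apart. The log2 fold change was -2.84 with an SE of 0.784, ranging from -3.26 to -1.77 with 1 library left out (-1.77 without the second untreated tumor), and the adjusted p was 1. Gsta4, which conjugates hydroxynonenal, a product of lipid peroxidation, read 7.71, 17.1 and 10.1 CPM untreated and 5.13, 7.48 and 5.67 CPM under STV (log2 fold change -0.95, SE 0.306, or -0.54 without the second untreated tumor). Aldh5a1, the succinic semialdehyde dehydrogenase of the GABA shunt, read 17.2, 21 and 21.9 CPM against 15.5, 15.6 and 14.8 CPM (-0.40, SE 0.149). Aldh9a1, whose values are given above, had overlapping groups and a log2 fold change of -0.45 (-0.16 without the same tumor). None of these 4 members passed the threshold.

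Recurrent 17-DMAG tumors were compared with primary untreated tumors to ask what differed on regrowth without stavudine. Again 0 members were called, as of all genes (0%). At an unadjusted p under 0.05 there were 2 higher and 6 lower (17.0%, beside 9.69% of all genes). The median log2 fold change was -0.28 over the members (-0.41 in glutathione transferases, -0.19 in aldehyde dehydrogenases and 0.26 in aldo-keto reductases), and 18 of 47 were above 0 (38.3%, beside 49.4%). Groups did not overlap in 1 member that was higher, Aldh1l2 (2.1%, beside 7.65%), and in 6 that were lower, Aldh3a2, Aldh5a1, Aldh6a1, Gsta3, Gstt2 and Gstz1 (12.8%, beside 7.45%). The first recurrent 17-DMAG tumor was the lowest in Aldh3a2, Aldh5a1, Aldh6a1, Gsta3 and Gstz1.

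Aldh5a1 had the smallest unadjusted p here. The recurrent 17-DMAG tumors read 10.2, 13.3 and 13.1 CPM, below the 17.2, 21 and 21.9 CPM of primary untreated tumors (log2 fold change -0.73, SE 0.150, adjusted p = 0.509). Aldh1l2 (chr10:83487450-83534140, minus strand), the mitochondrial formyltetrahydrofolate dehydrogenase of folate metabolism, read 30.1, 29.1 and 23 CPM against 15.6, 7.01 and 8.74 CPM (1.38, SE 0.328). Both were called by DESeq2, with adjusted p of 0.0078 and 0.0286. Gsta3 read 1.78, 12.1 and 10.7 CPM against 13.9, 36.5 and 29 CPM (-1.71, SE 0.656). Aldh1a3 read 48.3, 13.7 and 9.63 CPM against 10.9, 3.46 and 2.11 CPM (2.10, SE 0.822), the highest value being again that of the first recurrent 17-DMAG tumor. Its log2 fold change was 1.08 without that tumor and 3.08 without the first primary untreated tumor. That of Gsta3 was -1.20 without the first recurrent 17-DMAG tumor.

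Under stavudine, the recurrent 17-DMAG plus STV tumors were compared with the primary STV tumors, groups that share no library with the comparison just described. There were 0 members called (0% of all genes), and 4 higher and 1 lower at an unadjusted p under 0.05 (10.6%, beside 10.1% of all genes). The median log2 fold change was 0.14, and 28 of 47 were above 0 (59.6%, beside 51.8%). With 2 tumors against 3, groups failed to overlap in 6 members that were higher (12.8%, beside 17.4%) and 7 that were lower (14.9%, beside 17.9%), so the members did not exceed the background.

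Aldh3b1, an aldehyde dehydrogenase that acts on lipid-derived aldehydes, read 8.82 and 12.9 CPM in recurrent 17-DMAG plus STV against 2.99, 4.72 and 3.8 CPM in primary STV tumors. Both recurrent tumors were above all 3 primary tumors (log2 fold change 1.51, SE 0.385, adjusted p = 0.313; DESeq2 0.0212). The higher value was that of the tumor with 1467 CPM of muscle and 1242 CPM of luminal genes, and without it the log2 fold change was 1.20 (adjusted p = 1). Aldh1l2 read 31.4 and 21.4 CPM against 8.66, 11.1 and 16.1 CPM (1.15, SE 0.355). Gstt1, which acts on small halogenated compounds, read 43.8 and 19.6 CPM against 18, 14.1 and 20.5 CPM, so the difference (0.86) rested on 1 high tumor: it was 0.15 without the first recurrent tumor and 1.32 without the second. Gstp2, at 0.215 and 0.204 CPM against 0.023, 0.0653 and 0.0422 CPM, had a log2 fold change of 2.2 on few counts.

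Averaged over both water arms, 0 members were called between recurrent and primary tumors (0% of all genes). At an unadjusted p under 0.05 there were 2 higher and 3 lower (10.6%, beside 13.6% of all genes). The median log2 fold change was -0.05, with 23 of 47 above 0 (48.9%, beside 50.3%). Over all 5 recurrent and 6 primary tumors, 1 member was higher without overlap (2.1%, beside 0.652% of all genes) and 1 was lower without overlap (2.1%, beside 0.688%). These were Aldh1l2 and Aldh5a1. Aldh1l2 averaged 27 ± 4.47 CPM over the recurrent tumors (SD, n = 5) and 11.2 ± 3.83 CPM over the primary ones (SD, n = 6), with ranges of 21.4 to 31.4 and 7.01 to 16.1 CPM. Recurrent tumors were higher by 1.26 on the log2 scale (SE 0.241), and this value ran from 1.12 to 1.46 with any 1 library left out. The adjusted p was 0.287 by edgeR and 0.000702 by DESeq2. Of the stretches of 50 bases in its transcript, 16.8% also occur, on either strand, in transcripts of D10Wsu102e. Its count is therefore uncertain by an amount that was not tested.

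The 5 recurrent tumors averaged 12.9 ± 1.58 CPM (SD) of Aldh5a1 and the 6 primary tumors 17.7 ± 3.03 CPM. The ranges were 10.2 to 14.2 and 14.8 to 21.9 CPM, with a narrow gap between them. The log2 fold change was -0.43 with an SE of 0.113 (adjusted p = 0.287 by edgeR and 0.0191 by DESeq2). Of the 50-base stretches of the Aldh5a1 transcript, 13.7% also occur, on either strand, in transcripts of other annotated genes, led by 4932702P03Rik. Akr1cl, which read 1.89, 4.14 and 9.26 CPM in primary untreated, 2.76, 5.4 and 1.24 in primary STV, 0.857, 0.514 and 2.81 in recurrent 17-DMAG, and 0.782 and 0.693 in recurrent 17-DMAG plus STV tumors, was lower by a log2 fold change of -1.98 (SE 0.619), with an adjusted p of 0.313 by edgeR and 0.035 by DESeq2. Gsta2, whose values are given above, had one of -1.71 (SE 0.551, adjusted p = 0.313), and its lowest 4 tumor values were all of recurrent tumors. The macrophage list ran from 126 to 174 CPM in primary and from 135 to 478 CPM in recurrent tumors. The fibroblast list ran from 239 to 891 and from 331 to 5641 CPM. In both lists the groups overlapped, with the highest sums in recurrent tumors. Their part in the members' values was not tested.

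**Figure D4:**
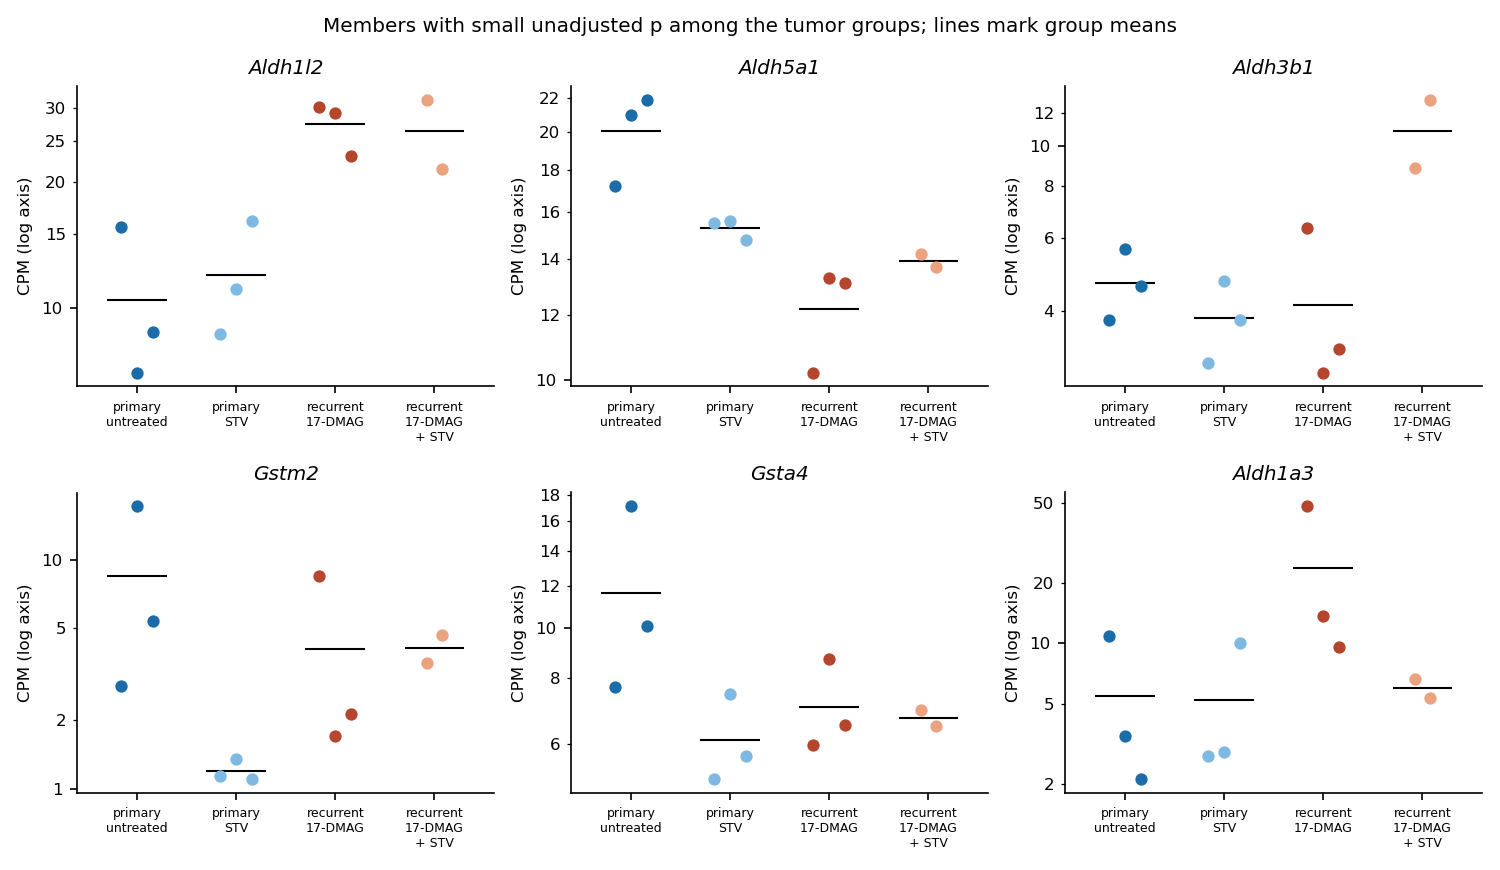
CPM on a log axis of 6 members with small unadjusted p among the 4 tumor groups; each point is 1 tumor and black lines are group means. Aldh1l2 is higher and Aldh5a1 lower in all 5 recurrent than in all 6 primary tumors, Aldh3b1 is highest in the recurrent 17-DMAG plus STV tumors (8.82 and 12.9 CPM), and the 3 Gstm2 values in primary STV tumors (1.13, 1.35 and 1.1 CPM) lie below every other tumor.

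Within recurrent tumors, those with stavudine were compared with those without. There were 0 members called (0% of all genes), and 2 higher and 0 lower at an unadjusted p under 0.05 (4.3%, beside 7.84% of all genes). The median log2 fold change was 0.07, with 29 of 47 above 0 (61.7%, beside 49.4%). Groups did not overlap in 8 members that were higher with stavudine (17.0%, beside 10.9%) and 2 that were lower (4.3%, beside 10.5%). Aldh3b1 read 8.82 and 12.9 CPM with and 6.34, 2.84 and 3.23 CPM without stavudine (log2 fold change 1.40, SE 0.385, adjusted p = 0.377; DESeq2 0.0478). Without the second recurrent 17-DMAG plus STV tumor, the one with the most skeletal muscle RNA, its log2 fold change was 1.09. Aldh2 read 409 and 474 CPM against 209, 352 and 342 CPM (0.56, SE 0.206), and its log2 fold change was 0.44 without that tumor and 0.35 without the first recurrent 17-DMAG tumor. Aldh1a3 was at 6.65 and 5.36 CPM against 48.3, 13.7 and 9.63 CPM (-1.99, SE 0.951), or -0.95 without the first recurrent 17-DMAG tumor. Gstz1, the maleylacetoacetate isomerase of tyrosine breakdown, was at 34 and 45.5 CPM against 16.6, 33.8 and 33.8 CPM (0.51), where the closest tumors of the groups nearly touched.

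The interaction asked whether recurrence differed with and without stavudine. It called 0 members (0% of all genes), and gave 5 at an unadjusted p under 0.05, all above 0 (10.6%, beside 7.84% of all genes). Above 0 were 31 of 47 members (66.0%, beside 52.5%), with a median of 0.31 beside 0.03 over all genes; by family it was 0.53 in glutathione transferases, 0.35 in aldehyde dehydrogenases and -0.21 in aldo-keto reductases. The interaction uses the libraries of the comparisons already described. Its leading members were Aldh3b1 (1.70, SE 0.522, adjusted p = 0.485), Aldh5a1 (0.61, SE 0.223), Gstm2 (2.85, SE 1.10) and Gstt1 (1.20, SE 0.475). With 1 library left out they ran from 1.36 to 2.11, 0.46 to 0.71, 1.77 to 3.91 and 0.46 to 1.63, the Gstm2 ends being without the second primary untreated and without the first recurrent 17-DMAG tumor, and the low Gstt1 end without the first recurrent 17-DMAG plus STV tumor. For Gstm2 the 4 group means were 8.45 CPM in primary untreated, 1.19 in primary STV, 4.08 in recurrent 17-DMAG and 4.1 in recurrent 17-DMAG plus STV tumors, where the first recurrent 17-DMAG tumor gave 8.43 CPM and the others 1.7 and 2.12 CPM.

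**Figure D5:**
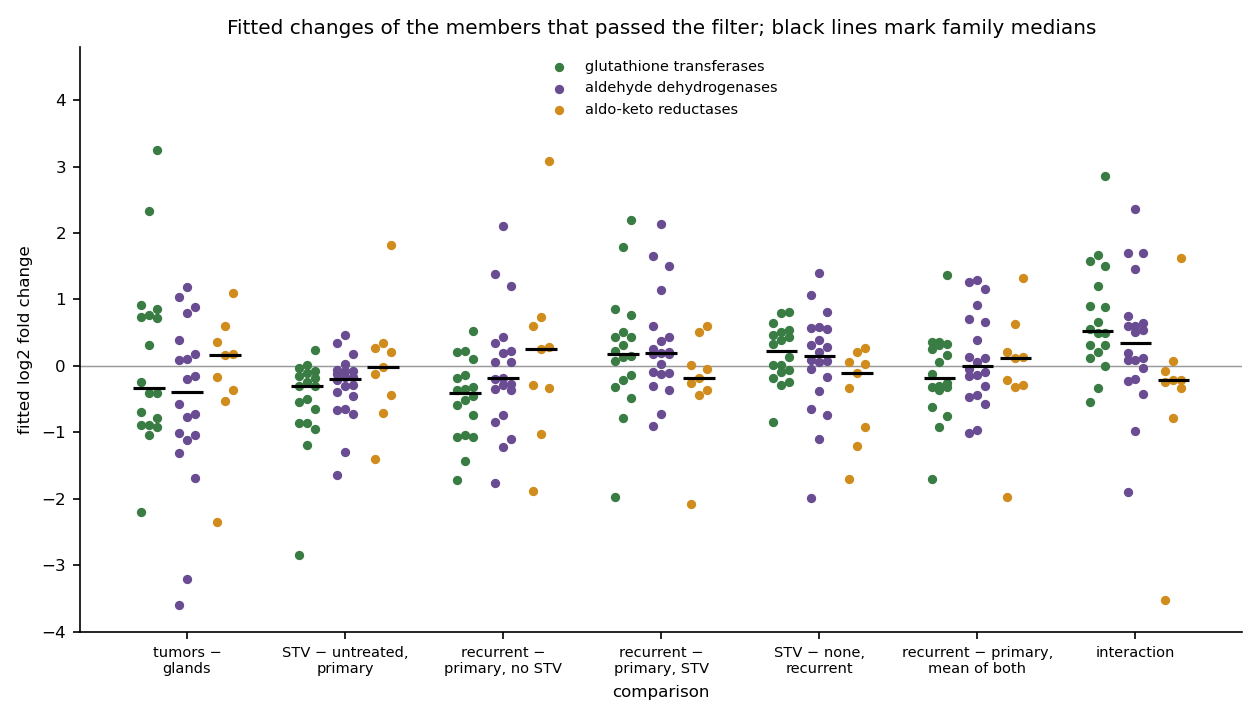
Fitted log2 fold changes of the 47 tested members in the 7 comparisons, by family; each point is 1 member and black lines are family medians. The medians lie between -0.41 and 0.53, and the points of greatest size in the gland comparison are Aldh1a7 (-3.60), Gsta2 (3.26) and Aldh1a1 (-3.21).

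Several members that are widely used as markers or are known in drug metabolism showed little difference between tumor groups relative to their spread. Akr1a1 read 205 ± 52.8 CPM in primary untreated, 248 ± 14.1 in primary STV, 248 ± 22.6 in recurrent 17-DMAG (SD, n = 3 each) and 251 ± 14.5 in recurrent 17-DMAG plus STV tumors (SD, n = 2), and 210 ± 10.2 in the glands (SD, n = 2). Gstp1, whose product is a classic marker of drug-resistant cells, read 19.4 ± 4.08, 19.9 ± 3.46, 21.2 ± 0.420 and 23.2 ± 2.22 CPM in the same order of tumor groups. Its log2 fold changes between tumor groups ran from 0.02 to 0.23, with SEs of 0.137 to 0.203. Gstm1 read 59.5 ± 26.3, 41.1 ± 11.9, 42.1 ± 12.7 and 35.5 ± 5.25 CPM. The spread within the primary untreated group, from 35.4 to 87.5 CPM, spanned all other tumors but 3.

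Aldh2 read 273 ± 36.3 CPM in the glands and 358 ± 16.3, 341 ± 30, 301 ± 79.8 and 442 ± 46.4 CPM in the tumor groups in the same order, where its low value of 209 CPM was that of the first recurrent 17-DMAG tumor. Gsta4 read 12.8 and 11.9 CPM in the glands, 5.95, 8.71 and 6.51 CPM in recurrent 17-DMAG and 6.96 and 6.48 CPM in recurrent 17-DMAG plus STV tumors, so the untreated primary tumors were the group nearest the glands. Aldh1a3 read 25.6 and 7.21 CPM in the glands and 2.76, 2.89 and 10.1 CPM in primary STV tumors. Gstp1 read 17.6 and 61.5 CPM in the glands, and Gstm1 44.8 and 25.3 CPM.

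The other leading members are given as group means with SDs, first for the glands and then for the tumor groups in the same order. Gstt3 averaged 33.4 ± 6.84 CPM in the glands and 54.2 ± 5.03, 53.6 ± 9.37, 48.3 ± 17.9 and 66.4 ± 7.1 CPM in the tumors. Aldh6a1 averaged 105 ± 22.3 and 87.8 ± 13.1, 79 ± 15.2, 49.6 ± 26 and 73.6 ± 19.4 CPM. The wide SDs in the third tumor group come with low values of its first tumor, 27.7 CPM of Gstt3 and 19.5 CPM of Aldh6a1. Akr1b10 averaged 17.2 ± 0.702 and 24.4 ± 6.17, 24.3 ± 4.18, 19.6 ± 2.75 and 20.3 ± 0.967 CPM, and Akr7a5 23.9 ± 9.76 and 14.7 ± 2.93, 17.2 ± 1.38, 18.1 ± 2.91 and 16.7 ± 1.75 CPM. By edgeR none of the 4 passed the threshold in any comparison; DESeq2 called Gstt3 between tumors and glands.

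Members at low levels varied more. Akr1b8, an aldose reductase-like enzyme, read 5.56, 4.08 and 1.38 CPM in primary untreated, 1.34, 7.27 and 1.64 in primary STV, 14.7, 1.09 and 2.62 in recurrent 17-DMAG, and 5.44 and 4.34 in recurrent 17-DMAG plus STV tumors, with 3.62 and 4.28 CPM in the glands. Akr1c18, which inactivates progesterone, read 0.182 and 0.285 CPM in the glands, 0.119, 0.0408 and 0.0401 in primary untreated, 0.737, 0 and 0 in primary STV, 1.41, 0 and 0.357 in recurrent 17-DMAG, and 0.196 and 0.163 in recurrent 17-DMAG plus STV tumors. Aldh3a1, a corneal and stomach enzyme known for oxidising cyclophosphamide metabolites, had 2 to 20 counts in every library, at means of 0.239 CPM in the glands and 0.187, 0.118, 0.197 and 0.0905 CPM in the tumor groups, and its log2 fold changes between tumor groups had SEs of 0.691 to 1.07. With SEs of this size, the absence of a call does not show that Aldh3a1 was unchanged. How much of these SEs came from few counts and how much from spread between tumors was not tested. Akr1b8, at 49 to 636 counts, had SEs of like size (0.722 to 1.09).

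Members not given in every group above ran over the 11 tumors as follows. Of the transferases, Gsta3 ran from 1.78 to 36.5 CPM, Gstz1 from 16.6 to 46.3, Gstt1 from 14.1 to 43.8, Gstm6 from 0.168 to 0.759, Gstt2 from 6.83 to 28.6, Gsto1 from 6.03 to 19.8, Gsto2 from 0.718 to 2.81, Gstm4 from 5.7 to 13.3, Gstm7 from 1.76 to 5.36 and Gstk1 from 2.62 to 8.52. Of the dehydrogenases, Aldh3a2, which clears fatty aldehydes, ran from 46.4 to 107 CPM, Aldh16a1 from 21.4 to 30.2 and Aldh3b3 from 0.0926 to 3.95. Aldh7a1 ran from 45.8 to 100 CPM, Aldh4a1, of proline breakdown, from 7.99 to 35.4, Aldh1l1, the cytosolic counterpart of Aldh1l2, from 4.68 to 30.6, Aldh3b2 from 2.22 to 45.1 and Aldh1b1 from 0.321 to 2.06. Among reductases, Akr1e1 ran from 8.61 to 29.1 CPM and Akr1c13 from 0.358 to 3.65. Aldh1l1, unlike Aldh1l2, had its lowest value in the first recurrent 17-DMAG tumor and its highest in the third.

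The antioxidant response element core, searched as TGACNNNGC on both strands in windows of 300 bases around RefSeq start sites, occurred in windows of 7 of the 49 members with a window and of 14.0% of all 27025 genes with one. The members were Akr1c19, Akr1cl, Aldh1a2, Aldh9a1, Gsta3, Gstm5 and Gstm7. As examples, the match of 1 alpha-class transferase, 1 aldehyde dehydrogenase and 1 mu-class transferase is shown in capitals with 10 bases on either side, upstream of the start site, at chr1:21240454-21240482 (Gsta3), chr1:167349894-167349922 (Aldh9a1) and chr3:107895802-107895830 (Gstm5), all on the plus strand of GRCm38.p6.

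Gsta3: aactcaggcaTGACATTGCatttttcttc
Aldh9a1: ttaattatgcTGACTAGGCccaagctact
Gstm5: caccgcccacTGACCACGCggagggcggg

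The match is a description of letters. Gsta3 and Aldh9a1 are described above, and Gstm5 ran from 15.3 to 31.5 CPM in the tumors and read 15.5 and 11.2 CPM in the glands.

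Other genes of the pathways were counted from lists fixed with the members. Of 28 genes of glutathione synthesis, reduction and peroxidases, 0 were called higher and 4 lower in tumors than in glands, where 8.81% of all genes were called lower. These were Ggt1 and Ggt5, which split glutathione outside the cell, Gsr, which regenerates it, and Glrx. Ggt1 read 13.8 and 342 CPM in the glands and 2.02 to 24.9 in tumors, and Ggt5 17.7 and 15.2 CPM in the glands and 1.11 to 12.4 in tumors. Gsr read 38 and 59.6 CPM in the glands and 25.8 to 43.5 in tumors, and Glrx 16.6 and 161 CPM in the glands and 16 to 32.1 in tumors. In Ggt1, Gsr and Glrx, gland 1 thus lay inside the tumor range. Of 16 carbonyl, quinone and alcohol reductases, Por, Cbr3 and Dcxr were called lower. Por, the electron donor of the cytochromes P450, read 55.4 and 75.8 CPM in the glands and 28.4 to 37.1 CPM in the tumors, without overlap (log2 fold change -1.10, SE 0.119, adjusted p = 0.000968). Cbr3, at 3.5 and 5.14 CPM in the glands and 1.06 to 2.07 CPM in tumors, did not overlap either, while Dcxr, at 11.5 and 22.5 against 7.08 to 14.4 CPM, did. Of 16 genes of retinoid handling, Lrat, which stores retinol as esters, and Dhrs9, which oxidises retinol, were called lower, but gland 1 (0.323 and 0.485 CPM) was far below gland 2 (45.4 and 39.4 CPM) in both. Of 14 NRF2 regulators and targets, Pgd, Taldo1 and G6pdx, enzymes of the pentose phosphate pathway that supplies NADPH, were called lower. Their values were 122, 131 and 59.5 CPM in gland 1 and 501, 320 and 427 CPM in gland 2, and gland 1 lay inside the tumor range of each. None of the 4 lists had a called gene in any comparison between tumor groups. At an unadjusted p under 0.05 these lists had 0 to 4 genes higher and 0 to 3 lower in each of those comparisons, beside 3.76% to 13.6% of all genes. The 4 higher were of 15 retinoid genes tested for recurrence without stavudine (9.69% of all genes). They were also of 28 glutathione genes for recurrence over both arms (13.6%). The 3 lower were of 16 reductases for recurrence under stavudine (10.1%).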

How the data were processed

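Total RNA depleted of ribosomal RNA was sequenced from 13 tissues. Per the labels and the study's methods, the authors used STAR to align reads to the mouse genome (mm10, GRCm38) and featureCounts to assign them to genes (Subread 1.6.2 in the submitters' processing notes). The deposited values were raw counts, not normalized. Strand setting and handling of reads with several matches are not given in the sources used here.

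Tests across all genes used edgeR 4.0.16 in R 4.3.3: filterByExpr by group, TMM factors, robust dispersions and the two-sided quasi-likelihood test, with Benjamini-Hochberg adjustment over all genes tested. The gland comparison was fitted on 13 libraries (17135 genes, biological coefficient of variation 0.431), the other 6 on the 11 tumors (16870 genes, 0.402). Genes were called at an adjusted p under 0.05. Fits were tested on simulated data first. DESeq2 1.42.0, limma 3.58.1 and other settings were alternatives.

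Members and lists were chosen with earlier results of these data known. Values in every library are given for called members (up to 8 in each direction) or, where under 4 were called, for those with the smallest unadjusted p up to 4. The leading 3 members of each family per kilobase and 11 fixed members are given by group. Chosen beyond this rule, after their values were seen, were members named for overlap, spread or counts. Marker lists of adipocytes, skeletal muscle, lymphocytes, macrophages, milk-producing cells, luminal, basal, fibroblast and endothelial cells were summed. Of 5 endothelial genes, 1 was called lower in tumors (Tek); of 8 milk genes 6, of 7 lymphocyte genes tested 7, and of 5 luminal genes 1 (Krt19); of macrophage and muscle genes 0. Positions are from GENCODE vM21 and promoters from RefSeq (GRCm38.p6), where 49 of 59 members had a window. That each library was a separate mouse is not stated, so p-values measure the spread between these samples.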

Additional observations from a re-analysis of the deposited data

How the results depend on the processing

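Between tumors and glands, the 6 members called became 11 with DESeq2 and 1 with a replicate block, and 1 to 13 with 1 library left out, as 1785 genes became 3242, 371 and 535 to 4255. Without gland 2 the call of Aldh1a7 remained and Aldh18a1 reversed to 0.11 (log2; -2.4 without gland 1); without the first recurrent 17-DMAG tumor 13 members were called. Of the 6, 4 were called without a filter on low counts and 4 by limma voom, which gave 5 in all, and 6 with DESeq2 size factors in edgeR. DESeq2 called more between tumor groups: 17 genes for stavudine in primary tumors, 2 members and 61 genes for recurrence without stavudine, 1 and 318 under stavudine, 1 and 258 for stavudine in recurrent tumors, 3 and 401 for recurrence over both arms, and 185 genes for the interaction. With only the libraries of the groups compared, 2 genes were called for recurrence under stavudine. With 1 library left out, members called stayed at 0 in all 6 tumor comparisons, while genes called ran from 0 to 1 (recurrence without stavudine), 0 to 100 (under stavudine), 0 to 141 (stavudine in recurrent tumors), 0 to 6 (both arms) and 0 to 77 (interaction). Where this left 1 library in a group, it was assumed to vary like the others. The causes were not tested. Correlations of deviations from the group means were computed between tumors of different groups. For the same replicate number r ran from -0.3 to 0.22 (15 pairs, 2 of them over 0.1), and for different numbers from -0.37 to 0.37. With groups of 2 or 3 tumors, these values cannot exclude that samples of the same number were paired. In the tumor comparisons the replicate block also called 0 members. Per kilobase, Aldh18a1 was 21.9 with library totals only. Aldh3a1 had only 2 to 20 counts a library.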

Other observations

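Low counts in this table were more often even than odd. Of counts from 1 to 10 over all genes, 76.6% were even, against 49.7% of counts over 500. Among members, Aldh1b1 had even counts in all 13 libraries, from 2 to 98, and Aldh1a2 in 12 of 13. What made them even was not tested. An even count can stand for fewer independent reads than it shows, which bears on the members with few counts.

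Slc7a11, which imports the cystine used to make glutathione, and Nqo1, a quinone reductase and NRF2 target, were chosen after their values were seen. Nqo1 read 10.4, 1.57 and 10 CPM in primary untreated, 7.99, 11.9 and 16.9 in primary STV, 48.3, 27.9 and 18.1 in recurrent 17-DMAG, and 44.6 and 16.3 in recurrent 17-DMAG plus STV tumors. The log2 fold change of recurrent against primary tumors was 1.70 with an SE of 0.499 (adjusted p = 0.293, edgeR). For Slc7a11 it was 1.34 with an SE of 0.385 (adjusted p = 0.289), from 1.59 to 5.52 CPM in primary and 4.63 to 12.2 CPM in recurrent tumors. Neither was called.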
